A study of Rattus norvegicus with 16 samples.

Results

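The genes described are 9 members of the epidermal growth factor (EGF) receptor family system in the rat colon: 6 ligands (Areg, Ereg, Hbegf, Tgfa, Btc and Nrg1) and 3 receptors (Egfr, Erbb2 and Erbb3). They were chosen by name, and every probe whose RefSeq transcript maps to one of these symbols was taken, which gave 12 of the 30367 probes on the array and 9 of the 15159 genes that could be named. Tgfa had 2 probes, Erbb2 had 3 and each other member had 1. A gene with several probes is represented by the brightest, and the others are described beside it.

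Distal colon that the labels call normal was taken from 16 male rats, 4 in each of 4 groups, and each sample was hybridised to its own single-colour Agilent array. They came from crosses of ACI with F344, with the strain given as (ACIxF344)F1-Pirc in every label, wildtype animals included. The groups were Apc wild type untreated, Apc wild type given dextran sodium sulfate (DSS), Pirc/+ untreated and Pirc/+ given DSS. DSS, a polymer that inflames the colon, was in the drinking water at 4% in 2 courses, days 40 to 47 and days 54 to 61 of age. All rats were sampled at 97 days of age, 36 days after the last DSS, and untreated rats had none. Pirc is a germline allele of Apc, the tumour suppressor that restrains Wnt signalling, carried in every cell, so that no cell type was targeted. The labels do not say how the tissue was taken or how much of the colon wall each sample held.

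EGF family ligands are made as membrane proteins that metalloproteases shed, and they bind receptor tyrosine kinases that pair and signal through mitogen-activated kinases and phosphoinositide 3-kinase. Areg, Tgfa, Ereg, Btc and Hbegf bind Egfr, while Nrg1 binds Erbb3, and Erbb2 has no ligand of its own but is the preferred partner of the others. In the gut the system is known for epithelial growth and for repair after injury.

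Levels are log2 signals relative to the 75th percentile of the same array, so 0 is the level of that percentile. Levels of different genes come from different probes and are not tested against each other; the brightest gene of a list is only the one whose probe had the highest mean signal. The 75th percentile itself had a median signal of 1387 in untreated wildtype, 1222 in DSS-treated wildtype, 1980 in untreated Pirc and 1580 in DSS-treated Pirc rats. Spots well above background made up 71.11% to 80.32% of each array, and 10 of the 12 probes were well above background on all 16 arrays. In what follows, the 4 values of a group are given for rats 13, 17, 21 and 25 (untreated wildtype), 14, 18, 22 and 26 (DSS-treated wildtype), 11, 15, 19 and 23 (untreated Pirc) and 12, 16, 20 and 24 (DSS-treated Pirc). In each group the first 2 rats lay on slide 1 and the other 2 on slide 2. Each group lay in 1 array column, and the effects of column and group cannot be told apart.

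Markers of colon epithelium were looked at as a check on the tissue. They do not single out the distal colon, so the site given by the label was not tested. Of 10 listed genes, 9 had a named probe, and all 9 (Epcam, Cdh1, Krt8, Krt18, Krt19, Krt20, Vil1, Lgals4 and Cdx2) were well above background on all arrays, with Lgals4 the brightest. By correlation over all probes, the closest array came from the same group for 14 of the 16. The exceptions were untreated Pirc rat 23 and DSS-treated wildtype rat 26, both closest to untreated wildtype rat 25. No 2 arrays held identical values (0 of 120 pairs), and the correlation of 2 arrays lay between 0.959 and 0.993.

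Differences were tested with limma over all probes. The rule for a call was a Benjamini-Hochberg adjusted p not above 0.05 together with a 2-fold or larger change, and a single gene is said to rise or fall by the adjusted p alone. A rise or fall is lost in an alternative where its adjusted p was above 0.05 there, whatever its size. The comparisons share groups: each group enters 1 DSS comparison and 1 genotype comparison, so the values of these are not independent of each other.

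After DSS, the ligand Nrg1 rose in both genotypes, the receptor Egfr rose in wildtype rats and the ligand Btc fell in Pirc rats. Among DSS-treated rats, the receptors Erbb2 and Erbb3 were lower in Pirc than in wildtype animals. These results differ in how well they hold: of 28 alternatives, the rise of Nrg1 was lost in 1 in each genotype, the rise of Egfr in 8, the fall of Btc in 13, and the lower level of Erbb2 in 7 and of Erbb3 in 18. Areg, Ereg, Hbegf and Tgfa passed the test in no comparison of the 16 arrays.

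For DSS in Pirc rats, 2 of the 9 members were called (Nrg1 higher and Btc lower), where 7.46% of all probes were. By the adjusted p alone 1 rose and 1 fell, beside 14.7% of all probes, 8.14% higher and 6.51% lower. For DSS in wildtype rats, 2 of the 9 were called (Nrg1 and Egfr, both higher), where 2.77% of all probes were. By the adjusted p alone 2 rose and 0 fell (no other member had an unadjusted p under 0.05 in limma, and the model without moderation gave the same calls), beside 3.84% of all probes, 2.94% higher and 0.899% lower. With so few members, shares are not read further. Between untreated Pirc and wildtype rats limma called 0 of the 9 members, with 2 at an unadjusted p under 0.05, and 0% of all probes by every rule (0% by the adjusted p, 0% higher, 0% lower and 0% called), with 3103 probes at an unadjusted p under 0.05. The model without moderation also called 0 members there. Among DSS-treated rats 0 of the 9 were called between Pirc and wildtype by the brightest probe of each gene, where 5.47% of all probes were, while another probe of Erbb2 (A_64_P038812, -1.20) met the rule for a call. By the adjusted p alone 2 fell and 0 rose there, beside 18.2% of all probes, 9.47% higher and 8.76% lower. The number of members at an unadjusted p under 0.05 was 2 as well, and 0 members were called without moderation. For the difference between the DSS effects in the genotypes, limma called 0 of the 9 members, with 1 (Btc) at an unadjusted p under 0.05 and 0 without moderation. Of all probes 0.0428% were called there, 0.0428% by the adjusted p alone, 0.0428% higher and 0% lower.

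The median change over the members was 0.04 for DSS in Pirc rats, 0.10 for DSS in wildtype rats, -0.09 between untreated genotypes and -0.23 between DSS-treated genotypes. Over all probes the medians were 0.04, 0.09, -0.02 and -0.11 in the same order. For the difference between the DSS effects the median was -0.29 over the members and -0.06 over all probes. Quantile normalization moved the median of all probes by over 0.1 in both DSS comparisons, to -0.07 in Pirc and -0.04 in wildtype rats, and it was -0.02 in wildtype rats under normexp background correction of the median signal, a setting that includes quantile normalization and is called normexp below. These medians lay near 0 and changed sign in other settings too. For DSS in Pirc rats the median was -0.03 under normexp, 0.16 on slide 1, -0.12 on slide 2, -0.10 without rat 16 and -0.05 without rat 19. For the difference it was 0.06 on slide 1 and 0.02 without rat 23, and between untreated genotypes 0.01 with the filter on dim probes and 0.03 without rat 19. Between DSS-treated genotypes it kept its sign throughout. Of the probes called for DSS, 73.8% were higher in Pirc and 85.5% in wildtype rats, and under quantile normalization 63.2% and 72.6%. For the difference between the DSS effects 100% of the calls were higher, and under normexp 80.8%.

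The counts over all probes also moved with single rats. Of the 841 probes called for DSS in wildtype rats, the count was 375 without rat 14, 456 without rat 17, 446 without rat 18 and 503 without rat 21. By the adjusted p of limma alone, 1165 passed there, and 422, 505, 500 and 613 without the same rats, 705 without rat 25 and 1801 without rat 26. For DSS in Pirc rats 4451 passed, and 2880 without rat 15 and 2776 without rat 20. Between DSS-treated genotypes 5537 passed, and 3605 without rat 12 and 3131 without rat 20, where the called probes went from 1660 to 1024. The difference between the DSS effects had 13 called probes, and 8 without rat 11 or rat 25, 63 without rat 12, 27 without rat 16 or rat 22, 25 without rat 24 and 35 without rat 26. The share of those calls that were higher was 77.8% without rat 16, 66.7% without rat 23, 68% without rat 24 and 68.6% without rat 26. Between untreated genotypes the count of 0 in limma (3103 at an unadjusted p under 0.05, 0 called without moderation) became 1 without rat 13 and 4 without rat 16.

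**Figure D1:**
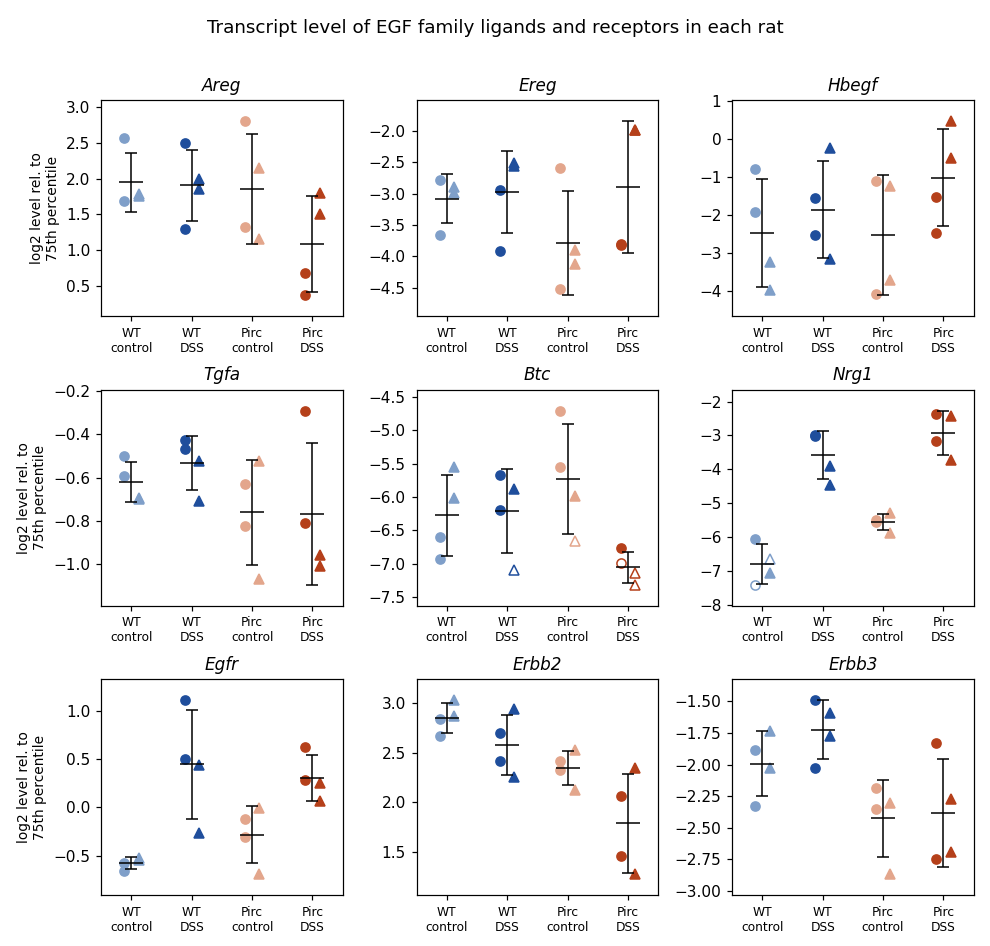
Level of each member in every rat, 1 panel per gene, with the group on the horizontal axis and the log2 signal relative to the 75th percentile of the array on the vertical axis. Circles are rats on slide 1, triangles rats on slide 2, open symbols arrays where the probe was not well above background, and black bars the mean and SD of 4 rats. Nrg1 lies between -3.74 and -2.36 in DSS-treated Pirc rats and between -5.88 and -5.30 in untreated ones, while Hbegf spreads over several log2 units within each group.

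Nrg1 (probe A_64_P281840) encodes neuregulin 1, which binds Erbb3 and acts through its pairing with Erbb2. Its levels in untreated wildtype rats were -6.06, -7.41, -7.05 and -6.65, with a mean of -6.79 ± 0.58 (SD, n = 4). In DSS-treated wildtype rats they were -3.02, -2.98, -4.45 and -3.89, with a mean of -3.59 ± 0.71. Every DSS-treated wildtype rat lay above every untreated one. In untreated Pirc rats the levels were -5.50, -5.55, -5.88 and -5.30 (mean -5.55 ± 0.24), and in DSS-treated Pirc rats -2.36, -3.16, -2.42 and -3.74 (mean -2.92 ± 0.65). Here too no treated rat overlapped an untreated one, and the untreated Pirc rats lay in a narrow band just above all untreated wildtype rats.

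Signal was well above background on 2 of the 4 untreated wildtype arrays and on all arrays of the other groups. After DSS, Nrg1 rose by 2.63 in Pirc rats (standard error 0.38, 95% interval 1.82 to 3.45, a factor of 6.21, adjusted p = 0.00048 from limma). In wildtype rats it rose by 3.21 (standard error 0.38, 95% interval 2.39 to 4.02, adjusted p = 0.00154 from limma). All 4 treated rats of each genotype showed this direction. The difference between the rises was -0.57 (95% interval -1.72 to 0.58, adjusted p = 0.756 from limma).

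On slide 1 alone the rise of Nrg1 was 2.76 in Pirc and 3.73 in wildtype rats, and on slide 2 alone it was 2.51 and 2.68, where the call was lost in both genotypes (adjusted p = 0.0714 and 0.300 from limma). Its size differed between settings. Normexp gave rises of 1.37 and 1.22 (adjusted p = 0.000847 and 0.0118 from limma), and a common floor for dim probes gave 2.63 and 2.59. The call remained in each of the 16 fits that left out 1 rat, in both genotypes.

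In order of their means the groups ran from untreated wildtype through untreated Pirc and DSS-treated wildtype to DSS-treated Pirc rats. The last 2 differed by 0.67, within the larger SD of 0.71. Between untreated genotypes the gap was 1.24, beyond the larger SD of 0.58 and with no overlap, yet it did not pass the test (adjusted p = 0.289 from limma). That gap shrank to 0.63 with the common floor and to 0.27 under normexp. Among DSS-treated rats the difference of 0.67 did not pass either (adjusted p = 0.255 from limma).

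The named genes most like Nrg1 over the 16 arrays, among 10354 genes well above background on all arrays, were Ifitm1 (Pearson r = 0.97, Spearman rho = 0.91), Hcst (r = 0.96, rho = 0.94) and Itgb7 (r = 0.95, rho = 0.92). Without the 2 rats farthest from the median of Nrg1, r was 0.97, 0.94 and 0.96. The arrays fall into the same 4 groups, and for deviations from the group means r was 0.63, 0.61 and 0.60. Ifitm1 belongs to a family of interferon-induced membrane proteins, Hcst is an adaptor of activating receptors on lymphocytes and Itgb7 is an integrin subunit of gut-homing lymphocytes.

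In bulk samples, fewer cells of a type and less RNA per cell cannot be told apart. Markers of several cell types moved with DSS as Nrg1 did, and their part in its rise was not tested. By the adjusted p alone, 8.14% of all probes rose and 6.51% fell with DSS in Pirc rats. In wildtype rats 2.94% rose and 0.899% fell. These shares stand beside the counts of each marker list below. Of 8 fibroblast markers, all measured, 8 rose after DSS in Pirc rats and 5 in wildtype rats, with median changes of 1.94 and 1.92. Their brightest gene was Col1a2, a collagen chain, which rose by 1.74 in Pirc rats (adjusted p = 0.0208 from limma). Decorin (Dcn) rose by 3.64 in Pirc rats and by 2.47 in wildtype rats (adjusted p = 0.00102 and 0.0327 from limma). The others that rose in Pirc rats were Col1a1 (2.53), Col3a1 (1.79), Pdgfra (2.08), Pdgfrb (1.49), and Lum and Thy1, which were well above background on 6 and 5 of the 16 arrays and are given without a size. In wildtype rats Col1a1 (2.18), Col3a1 (1.98), Pdgfra (2.15) and Pdgfrb (1.83) rose with Dcn. Summed signals, here and below, add values that are not in log2, so the brightest genes of a list weigh most in them. The summed signal of the fibroblast markers, relative to the 75th percentile, was 1.39, 1.385, 1.43 and 1.88 in untreated wildtype and 14.5, 8.10, 2.60 and 3.05 in DSS-treated wildtype rats. It was 1.56, 1.60, 2.65 and 2.70 in untreated Pirc and 5.79, 14.8, 5.53 and 9.40 in DSS-treated Pirc rats. Each treated rat thus exceeded all untreated rats of its genotype, and rats 14 and 16 were highest.

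Some immune markers moved as well. Of 8 macrophage markers, 3 rose in each genotype after DSS, namely Cd68, Itgam and the lysozyme gene Lyz2, and Cd14 was the brightest. Their summed signal was 10.4, 9.66, 12.6 and 10.96 in untreated wildtype, 24.98, 19.7, 13.45 and 13.1 in DSS-treated wildtype, 15.2, 14.6, 12.0 and 11.55 in untreated Pirc and 18.7, 20.3, 23.7 and 20.65 in DSS-treated Pirc rats. Of 6 measured neutrophil markers, 3 rose in each genotype after DSS (Cxcr2, S100a8 and S100a9, the brightest), and Elane was not above background on any array. Their summed signal was 0.587, 0.529, 0.353 and 0.712 in untreated wildtype, 3.73, 3.26, 4.39 and 0.908 in DSS-treated wildtype, 1.025, 1.11, 0.997 and 1.69 in untreated Pirc and 9.16, 37.65, 33.3 and 16.1 in DSS-treated Pirc rats. All treated rats exceeded the untreated rats of their genotype on both lists, with rat 26 closest to the untreated range for neutrophils.

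Of 7 mast cell markers 3 rose in Pirc rats (Cma1, Ms4a2 and Hdc) and 2 in wildtype rats (Cma1 and Ms4a2), with Kit the brightest. Their summed signal was 0.173, 0.173, 0.154 and 0.13 in untreated wildtype, 0.420, 0.370, 0.189 and 0.2195 in DSS-treated wildtype, 0.206, 0.161, 0.176 and 0.166 in untreated Pirc and 0.286, 0.359, 0.243 and 0.304 in DSS-treated Pirc rats. Of 8 T and natural killer cell markers 1 rose in Pirc rats (Ptprc, by 1.84) and 2 in wildtype rats (Ptprc by 1.95 and Nkg7 by 1.12), with Cd3d the brightest. In Pirc rats 1 of 8 is near the share of all probes that rose. Ptprc, the gene of CD45, is shared by most white blood cells. The summed signal of that list was 1.03, 0.9355, 0.841 and 1.12 in untreated wildtype, 1.42, 1.27, 1.01 and 1.60 in DSS-treated wildtype, 1.14, 1.22, 1.04 and 1.23 in untreated Pirc and 1.59, 1.645, 1.47 and 1.42 in DSS-treated Pirc rats. Of 5 measured endothelial markers 2 rose in Pirc rats (Pecam1 and Kdr) and 0 in wildtype rats by limma, where 2 had an unadjusted p under 0.05. Esam was their brightest gene and Tek was not above background on any array. Their summed signal was 0.781, 0.740, 0.839 and 1.16 in untreated wildtype, 1.26, 1.255, 0.810 and 1.19 in DSS-treated wildtype, 0.741, 0.691, 0.990 and 1.05 in untreated Pirc and 1.12, 1.37, 1.25 and 1.24 in DSS-treated Pirc rats. The lists of mast cells and T and natural killer cells separated treated from untreated Pirc rats without overlap, as did the endothelial list.

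Markers of stratified epithelium, the lining of skin, anus and urinary tract, also moved with DSS. Of 11 measured, 8 rose in Pirc rats: Krt4 (6.66), Krt15 (6.14), Krt14 (5.84), Krt5 (5.05), Upk3a (1.58), Upk1b (1.13), and Krt13 and Dsg3, which were well above background on 10 and 13 of the 16 arrays and are given without a size. In wildtype rats 1 rose, Krt13. Tp63 was the brightest by its mean, while Ivl and Upk2 were not above background on any array. Their summed signal was 4.53, 5.08, 4.48 and 4.62 in untreated wildtype, 6.74, 7.53, 30.7 and 4.39 in DSS-treated wildtype, 4.22, 3.75, 3.71 and 4.34 in untreated Pirc and 16.2, 36.5, 88.1 and 67.98 in DSS-treated Pirc rats. By this sum rat 26 lay just below all untreated wildtype rats and the other 3 treated wildtype rats above them, and the Pirc groups did not overlap. Tp63, the brightest, was not among the genes that rose. Of 6 smooth muscle markers 1 fell in Pirc rats (Des, the brightest, -1.87), and 0 changed in wildtype rats in limma, with 1 at an unadjusted p under 0.05. Des went against the rest of its list, whose other 5 genes had changes above 0 in both genotypes without passing, and the median of the list was 1.02 in Pirc and 0.77 in wildtype rats. The summed signal of smooth muscle lay between 0.662 and 3.76 in 14 rats and was 6.96 in untreated wildtype rat 25 and 11.6 in DSS-treated wildtype rat 26. Of 7 markers of enteric glia and neurons, with Sox10 the brightest, 1 rose (Uchl1) and 1 fell (Ret) in Pirc rats, and 0 changed in wildtype rats in limma, with 1 at an unadjusted p under 0.05.

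Btc (probe A_64_P043767) encodes betacellulin, a ligand of Egfr and Erbb4. Its levels were -5.56, -4.70, -5.99 and -6.66 in untreated Pirc rats (mean -5.73 ± 0.82, SD, n = 4) and -6.77, -7.00, -7.32 and -7.14 in DSS-treated Pirc rats (mean -7.06 ± 0.23). The treated rats all lay below the untreated ones, by as little as the gap between rats 23 and 12. Untreated wildtype rats had -6.93, -6.60, -5.55 and -6.02 (mean -6.28 ± 0.61) and DSS-treated wildtype rats -5.67, -6.20, -5.89 and -7.10 (mean -6.22 ± 0.63), which overlapped over most of their range. The probe was dim: it was well above background on 4, 3, 3 and 1 of the 4 arrays in untreated wildtype, DSS-treated wildtype, untreated Pirc and DSS-treated Pirc rats.

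In Pirc rats Btc fell by 1.33 after DSS (standard error 0.40, 95% interval -2.19 to -0.47, adjusted p = 0.0392 from limma), lower in 4 of 4 rats than in any untreated one. With 1 of the 4 treated arrays well above background, the size of this fall is uncertain. This call was lost with the common floor (-0.60, adjusted p = 0.123 from limma), under normexp (-0.37, 0.0640), on slide 2 alone (-0.90, 0.470), without moderation (0.0603) and with only the compared groups in the fit (0.0679). It was also lost without rat 11 (-1.27), 12 (-1.42), 15 (-0.99), 16 (-1.35), 18 (-1.33), 19 (-1.42), 20 (-1.24) or 24 (-1.30), at adjusted p values from limma of up to 0.124. In wildtype rats the change was 0.06 (adjusted p = 0.954 from limma), with 0.83 on slide 1 and -0.71 on slide 2, and the difference between the genotypes was -1.39 (95% interval -2.61 to -0.17, adjusted p = 0.410 from limma).

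The group means of Btc ran from DSS-treated Pirc through untreated wildtype and DSS-treated wildtype to untreated Pirc rats. Of the neighbours, only the first pair differed by more than the larger SD (0.78 against 0.61). The size of this gap is uncertain, since in DSS-treated Pirc rats only 1 array had Btc signal well above background. With the common floor, the difference of DSS-treated Pirc from DSS-treated wildtype rats shrank from -0.84 to -0.23. The genes most like Btc over the 16 arrays were Rragc (r = 0.85, rho = 0.91), Rwdd2b (r = 0.84, rho = 0.86) and Top3b (r = 0.84, rho = 0.88). Without the 2 rats farthest from the median r was 0.91, 0.92 and 0.80, and for deviations from the group means it was 0.80, 0.78 and 0.77.

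Areg (probe A_42_P791677) encodes amphiregulin, an Egfr ligand. Its levels were 1.69, 2.56, 1.75 and 1.79 in untreated wildtype, 2.49, 1.29, 1.996 and 1.85 in DSS-treated wildtype, 2.80, 1.32, 2.15 and 1.15 in untreated Pirc and 0.69, 0.37, 1.504 and 1.80 in DSS-treated Pirc rats. The DSS-treated Pirc group held the 2 lowest values, rats 12 and 16, but overlapped every other group. The mean of 1.09 ± 0.67 in DSS-treated Pirc rats stood against 1.86 ± 0.76 in untreated Pirc, 1.91 ± 0.49 in DSS-treated wildtype and 1.95 ± 0.41 in untreated wildtype rats (SD, n = 4). The lowest gap, 0.77, barely passed the larger SD of 0.76, and the other neighbours differed by 0.05 and 0.04. The DSS difference in Pirc rats was -0.77 (adjusted p = 0.235 from limma), made up of -1.53 on slide 1 and 0.00 on slide 2, and that between DSS-treated genotypes was -0.82 (adjusted p = 0.173 from limma).

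Ereg (probe A_44_P540992) encodes epiregulin, a ligand of Egfr and Erbb4. Its levels were -3.65, -2.78, -2.89 and -2.98 in untreated wildtype, -2.94, -3.91, -2.50 and -2.56 in DSS-treated wildtype, -2.59, -4.53, -3.90 and -4.12 in untreated Pirc and -3.82, -3.80, -1.99 and -1.98 in DSS-treated Pirc rats. The treated Pirc rats split by slide, low for rats 12 and 16 and high for rats 20 and 24, with the untreated Pirc rats spread from below to between them. The DSS difference in Pirc rats, 0.89 over all rats (95% interval -0.19 to 1.97, adjusted p = 0.286 from limma), was -0.25 on slide 1 and 2.03 on slide 2, where it passed the test (adjusted p = 0.0160 from limma). Neighbours in the order of means, from untreated Pirc through untreated wildtype and DSS-treated wildtype to DSS-treated Pirc, differed by 0.71, 0.10 and 0.08, each within the larger SD.

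Hbegf (probe A_64_P041521) encodes heparin-binding EGF-like growth factor. Its levels were -1.90, -0.78, -3.97 and -3.24 in untreated wildtype, -1.54, -2.53, -0.23 and -3.15 in DSS-treated wildtype, -1.11, -4.08, -1.24 and -3.69 in untreated Pirc and -2.48, -1.53, 0.47 and -0.51 in DSS-treated Pirc rats. Every group spanned several log2 units and all groups overlapped. The SD within groups, pooled, was 1.39, larger than that of 98.96% of all probes, whose median was 0.34. The DSS difference was 1.52 in Pirc rats (95% interval -0.40 to 3.44, adjusted p = 0.311 from limma) and 0.61 in wildtype rats (95% interval -1.31 to 2.53, adjusted p = 0.815 from limma). No neighbours in the order of means (untreated Pirc, untreated wildtype, DSS-treated wildtype, DSS-treated Pirc) differed by more than the larger SD.

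Tgfa encodes transforming growth factor alpha, an Egfr ligand of normal colon epithelium, and neither of its probes passed in any comparison. The brighter (A_64_P122865) had group means of -0.62 ± 0.09 in untreated wildtype, -0.53 ± 0.12 in DSS-treated wildtype, -0.76 ± 0.24 in untreated Pirc and -0.77 ± 0.33 in DSS-treated Pirc rats (SD, n = 4), with single rats from -1.07 to -0.29. The other (A_44_P310168) ranged from -1.22 to -0.55. The probes did not order the rats alike: of the untreated Pirc rats, rat 19 was lowest by the brighter (-1.07) and highest by the other (-0.88). The pooled SD within groups was 0.22 and 0.21. Between groups the changes of the brighter probe lay between -0.23 and 0.09, with adjusted p values from limma of 0.360 and above. By this probe no neighbours in the order of means differed by more than the larger SD. The changes of the other probe lay between -0.16 (untreated genotypes) and 0.23 (DSS in Pirc rats), with adjusted p values from limma of 0.397 and above.

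Within groups, Areg deviated together with Ereg and with Hbegf from rat to rat, and Ereg and Hbegf did so less closely. These pairs were picked out of the 36 pairs of members after their values were seen, and the correlations are descriptions over 16 arrays that share groups and slides. For deviations from the group means, Areg and Ereg had r = 0.83 and rho = 0.83, with r = 0.76 without the 2 farthest rats, 0.95 on slide 1 and 0.78 on slide 2. For Areg and Hbegf r was 0.74 and rho 0.63, with 0.73 without the 2 farthest rats, 0.82 on slide 1 and 0.69 on slide 2. Ereg and Hbegf had r = 0.57 and rho = 0.51, with r = 0.50 without the 2 farthest rats, 0.82 on slide 1 and 0.44 on slide 2. Over all 16 levels, group differences included, the order differed. There r was 0.59 for Ereg and Hbegf, 0.50 for Areg and Ereg and 0.32 for Areg and Hbegf. Rats 15 and 23, for example, were the lowest untreated Pirc rats for all 3 genes. Both lay in array row 2, while rats 11 and 19 lay in array row 1. The part of array row in these correlations was not tested.

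The genes most like Hbegf, also looked up after its spread was seen, were Sik1 (r = 0.88, rho = 0.87), Ier3 (r = 0.88, rho = 0.90) and Ppp1r15a (r = 0.88, rho = 0.87), with r = 0.83, 0.85 and 0.84 without the 2 farthest rats. For deviations from the group means r was 0.87, 0.91 and 0.92. All 3 are known as genes that respond within hours to stress or growth signals. Ier3 levels ranged from -0.15 in untreated Pirc rat 15 to 2.08 in DSS-treated Pirc rat 20, where Hbegf was at -4.08 and 0.47.

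Areg and Ereg are next to each other on chromosome 14 in the GRCr8 gene table, in the order Btc, Areg, Ereg and Epgn with no listed gene between them. Btc, the neighbour of Areg, did not follow it within groups (r = 0.01 for deviations from the group means). As the array was designed on a different build, only the order is taken from the table.

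Promoters from RefSeq on GRCr8, 250 bases before to 50 after the start of a gene, were available for 6 of the 9 members, Areg, Hbegf, Tgfa, Btc, Egfr and Erbb2, and not for Ereg, Nrg1 and Erbb3. The letters searched on both strands were TGANTCA for the AP-1 element, TGACGTCA for the cyclic AMP response element (CRE), GGGCGG for the GC box and, for the box named after it, CCAAT, which occur in 7.33%, 1.83%, 33.1% and 37.5% of the 33469 promoters of the table. No searched motif matches overlap in the promoters of the members. The CRE is found in Areg alone of the 6, and the letters of AP-1 in none of these windows. GC boxes number 1 each in Areg, Btc, Egfr and Erbb2 and 2 in Tgfa, and the CCAAT box is found once each in Hbegf and Erbb2. The promoters hold 56% G and C in Areg, 68.7% in Hbegf, 76.7% in Tgfa, 62.7% in Btc, 64.3% in Egfr and 71.3% in Erbb2, against a median of 51.7% over the table. Those of Areg (chr14:17265592-17265891, minus strand) and Hbegf (chr18:28390171-28390470, minus strand) are printed because these ligands deviated together within groups. Capitals mark matches, which are descriptions of the letters only: CRE and GC box in Areg, and the CCAAT box, read on the other strand, in Hbegf.
Areg: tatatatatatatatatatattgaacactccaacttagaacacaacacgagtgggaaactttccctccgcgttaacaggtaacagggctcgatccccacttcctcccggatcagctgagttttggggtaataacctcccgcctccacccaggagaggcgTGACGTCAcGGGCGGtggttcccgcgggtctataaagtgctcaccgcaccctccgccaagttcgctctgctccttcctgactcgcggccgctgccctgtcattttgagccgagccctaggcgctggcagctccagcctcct
Hbegf: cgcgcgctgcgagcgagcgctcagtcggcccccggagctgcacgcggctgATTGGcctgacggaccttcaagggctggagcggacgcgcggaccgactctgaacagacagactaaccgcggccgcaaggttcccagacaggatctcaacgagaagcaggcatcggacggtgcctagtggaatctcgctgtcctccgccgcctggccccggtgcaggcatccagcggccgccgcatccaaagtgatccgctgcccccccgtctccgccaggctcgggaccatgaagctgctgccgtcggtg

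**Figure D2:**
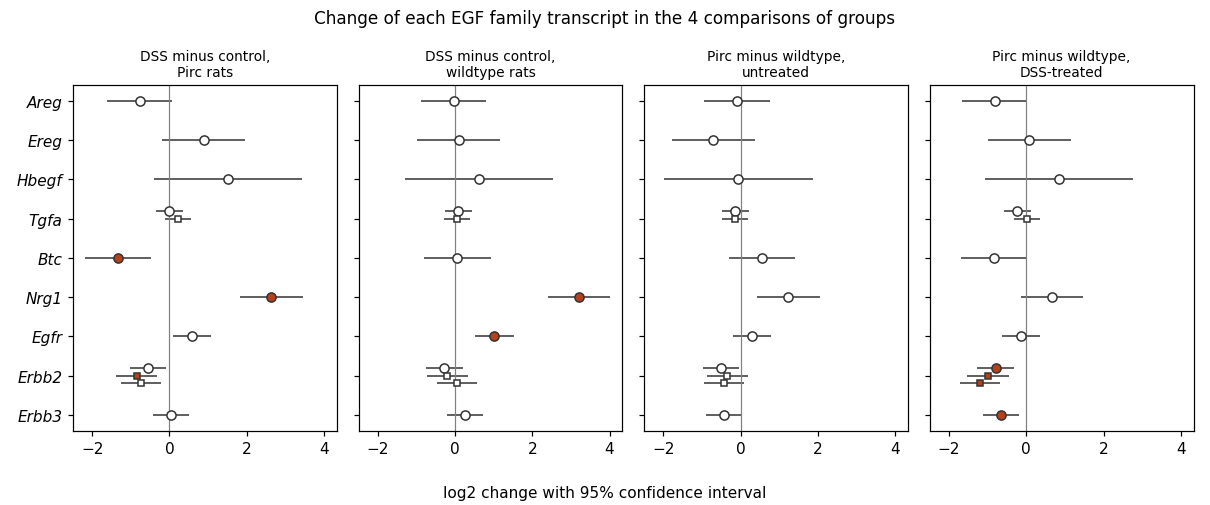
Log2 change of each member in the DSS comparisons within Pirc and wildtype rats and the genotype comparisons within untreated and DSS-treated rats, on the horizontal axis, with 95% confidence intervals from limma. Circles are the probe that represents the gene, squares the other probes of Tgfa and Erbb2, and filled red symbols an adjusted p of 0.05 or less. Nrg1 stands at 2.63 and 3.21 in the DSS comparisons, Egfr at 1.02 in wildtype rats and Btc at -1.33 in Pirc rats, and the Erbb2 probes at -0.79 to -1.20 between DSS-treated genotypes.

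Among the receptors, Egfr (probe A_44_P346408), which binds Areg, Ereg, Hbegf, Tgfa and Btc, rose after DSS in wildtype rats. Its levels were -0.66, -0.58, -0.54 and -0.52 in untreated wildtype rats (mean -0.57 ± 0.06, SD, n = 4) and 1.11, 0.50, 0.44 and -0.26 in DSS-treated wildtype rats (mean 0.45 ± 0.56). No treated wildtype rat overlapped the tight untreated group, but rat 26 came close to it. In Pirc rats the levels were -0.12, -0.30, -0.01 and -0.69 untreated (mean -0.28 ± 0.30) and 0.29, 0.63, 0.06 and 0.25 after DSS (mean 0.31 ± 0.23). These groups did not overlap either, with rats 19 and 20 nearly touching.

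Egfr rose by 1.02 after DSS in wildtype rats (standard error 0.23, 95% interval 0.52 to 1.52, a factor of 2.03, adjusted p = 0.0261 from limma), in 4 of 4 rats. In Pirc rats the change was 0.59 (standard error 0.23, 95% interval 0.09 to 1.09), again in 4 of 4 rats, and did not pass (adjusted p = 0.115 from limma). The difference between these changes was -0.43 (95% interval -1.14 to 0.27, adjusted p = 0.677 from limma). Within slides the change was 1.42 and 0.62 in wildtype rats and 0.67 and 0.50 in Pirc rats.

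Under normexp the change in wildtype rats passed at 0.93 (adjusted p = 0.0339 from limma), short of a factor of 2. The rise was lost on slide 2 alone (adjusted p = 0.982 from limma), with only the compared groups in the fit (0.0872), and without rat 13 (0.99), 14 (0.80), 17 (1.02), 18 (1.0025), 21 (1.03) or 25 (1.04), at adjusted p values from limma of 0.0578 to 0.0857. Without rat 26 the change in Pirc rats passed (0.59, adjusted p = 0.0461 from limma). Neighbours in the order untreated wildtype, untreated Pirc, DSS-treated Pirc and DSS-treated wildtype differed by 0.29, 0.59 and 0.14, and only the middle gap was larger than the larger SD (0.30). Genotypes did not differ past the threshold untreated (0.29, adjusted p = 0.722 from limma) or after DSS (-0.14, adjusted p = 0.714 from limma).

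The genes most like Egfr over the 16 arrays were Itgb6, an integrin subunit of epithelia (r = 0.94, rho = 0.89), Cers1 (r = 0.91, rho = 0.91) and C1qb, a complement chain (r = 0.905, rho = 0.88). Without the 2 rats farthest from the median r was 0.90, 0.86 and 0.86, and for deviations from the group means it was 0.87, 0.73 and 0.75. Nrg1 and Egfr had r = 0.77 over the 16 arrays and r = 0.10 for deviations from the group means. In wildtype rats, where Egfr rose, some fibroblast, macrophage, neutrophil, mast cell and T and natural killer cell markers and Krt13 rose as well, and their part in its rise was not tested.

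Erbb2 encodes the receptor that has no ligand of its own and pairs with the others. By its brightest probe (A_64_P038817) the levels were 2.67, 2.84, 3.03 and 2.87 in untreated wildtype rats (mean 2.85 ± 0.15, SD, n = 4) and 2.69, 2.42, 2.94 and 2.26 in DSS-treated wildtype rats (mean 2.58 ± 0.30). They were 2.33, 2.41, 2.53 and 2.12 in untreated Pirc rats (mean 2.35 ± 0.17) and 1.46, 2.06, 1.27 and 2.34 in DSS-treated Pirc rats (mean 1.78 ± 0.50). Rats 12 and 20 were lowest of all, while rat 24 lay within the DSS-treated wildtype range. Untreated Pirc rats all lay below untreated wildtype rats.

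Among DSS-treated rats Erbb2 was lower in Pirc animals by all 3 probes. The brightest gave -0.79 (standard error 0.22, 95% interval -1.26 to -0.33, adjusted p = 0.0221 from limma), with 3 of 4 Pirc rats below all wildtype ones. The others gave -0.99 for A_64_P109493 and -1.20 for A_64_P038812 (adjusted p = 0.0146 and 0.0053 from limma), and the last showed no overlap between the groups. Their mean fell by 0.997 (adjusted p = 0.00987 from limma). Between untreated genotypes the probes gave -0.51, -0.35 and -0.42, without overlap in any of them and past the threshold in none (adjusted p of 0.445 and above from limma).

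For DSS in Pirc rats the probes of Erbb2 gave -0.56, -0.85 and -0.73, of which A_64_P109493 passed (adjusted p = 0.105, 0.0354 and 0.0596 from limma), and without rat 24 the brightest passed as well (-0.75, adjusted p = 0.0223 from limma). In wildtype rats they gave -0.27, -0.20 and 0.05, and the difference between the DSS effects was -0.29 (95% interval -0.95 to 0.37), -0.64 (-1.40 to 0.11) and -0.78 (-1.52 to -0.04), past the threshold in none (adjusted p = 0.796, 0.543 and 0.443 from limma). The fall between DSS-treated genotypes was not past the threshold without rat 12 (-0.69), 14 (-0.76), 20 (-0.62) or 22 (-0.67), at adjusted p values from limma of 0.0576 to 0.0774, on either slide alone (-0.80 and -0.79), or with only the compared groups in the fit (0.111). The order of means ran from DSS-treated Pirc through untreated Pirc and DSS-treated wildtype to untreated wildtype rats, and only the first gap (0.56) was larger than the larger SD (0.50).

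Erbb3 (probe A_64_P080643) encodes a receptor that binds Nrg1 and signals in pairs with Erbb2. Its levels were -2.33, -1.88, -1.73 and -2.03 in untreated wildtype (mean -1.99 ± 0.25, SD, n = 4), -1.49, -2.03, -1.60 and -1.78 in DSS-treated wildtype (mean -1.72 ± 0.23), -2.18, -2.35, -2.30 and -2.87 in untreated Pirc (mean -2.43 ± 0.30) and -2.75, -1.83, -2.69 and -2.27 in DSS-treated Pirc rats (mean -2.38 ± 0.43). Pirc rats were mostly lower under either treatment, but the groups overlapped, with rat 16 among the wildtype values. Among DSS-treated rats Erbb3 fell by 0.66 from wildtype to Pirc animals (standard error 0.22, 95% interval -1.13 to -0.19, adjusted p = 0.0486 from limma). This was at the edge of the threshold: with slide as a block the adjusted p from limma was 0.0545, with array row as a block 0.0578 and without moderation 0.0568. With only the compared groups it was 0.122, and within slides the value was -0.53 on slide 1 (adjusted p = 0.462 from limma) and -0.79 on slide 2 (0.267). It was lost without rat 11, 12, 14, 15, 17, 19, 20, 21, 22, 24, 25 or 26, with changes between -0.84 and -0.54 over all fits that left out a rat.

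Between untreated genotypes the change of Erbb3 was -0.43 (adjusted p = 0.527 from limma), and DSS changed it by 0.04 in Pirc and 0.27 in wildtype rats (adjusted p = 0.933 and 0.624 from limma). The means ran from untreated Pirc through DSS-treated Pirc and untreated wildtype to DSS-treated wildtype rats, and only the last gap, 0.27, was larger than the larger SD, 0.25.

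Beside the lower Erbb2 and Erbb3, markers of colon epithelium were lower as well in DSS-treated Pirc than in DSS-treated wildtype rats, and their part in the receptors' difference was not tested. Of the 9 measured markers 4 fell and 0 rose in that comparison in limma, with 4 at an unadjusted p under 0.05: Cdh1 by -0.61, Epcam by -0.56, Krt8 by -0.57 and Vil1 by -0.62. Their summed signal, however, was 749.5, 642, 634.5 and 599 in untreated wildtype, 801.5, 789, 744 and 656 in DSS-treated wildtype, 624, 613, 521 and 732 in untreated Pirc and 630.3, 734, 552 and 596.5 in DSS-treated Pirc rats, so that DSS-treated genotypes overlapped through rat 16. After DSS, 1 of the 9 fell in Pirc rats (Epcam, -0.42) and 0 changed in wildtype rats in limma, with 4 at an unadjusted p under 0.05. In the same comparison of DSS-treated genotypes, 4 of 11 markers of stratified epithelium (Krt13, Krt15, Krt4 and Upk3a), 2 of 6 neutrophil markers (S100a8 and S100a9), 1 of 7 mast cell markers (Kit) and 1 of 8 T and natural killer cell markers (Cd3g) rose, 1 glial and neuronal marker rose (Uchl1) and 1 fell (Ret), and 0 fibroblast, macrophage, endothelial or smooth muscle markers changed by limma, where 0, 2, 0 and 1 had an unadjusted p under 0.05. Cd3g went against the median change of its list, which was -0.25 between DSS-treated genotypes. Of all probes, 9.47% were higher and 8.76% lower in that comparison, so 1 gene of 7 or 8 is near the share. Between untreated genotypes limma called 0 markers of any list, with 0 to 3 per list at an unadjusted p under 0.05.

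Erbb2 and Erbb3 deviated together within groups (r = 0.73 and rho = 0.77 for deviations from the group means, r = 0.79 without the 2 farthest rats, 0.94 on slide 1 and 0.76 on slide 2). Nrg1 and Erbb2 deviated in opposite directions (r = -0.69, rho = -0.61, r = -0.49 without the 2 farthest rats, -0.56 on slide 1 and -0.84 on slide 2). These pairs, too, were picked from the 36 after their values were seen.

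The rest of the pathway was followed in 5 lists of 68 genes, of which 58 had a named probe and 55 were well above background on all arrays. By the adjusted p of limma, 3 rose and 4 fell after DSS in Pirc rats, 2 rose and 1 fell after DSS in wildtype rats, and 1 rose and 8 fell between DSS-treated genotypes. Of all probes, 8.14% were higher and 6.51% lower in the first of these comparisons, 2.94% and 0.899% in the second and 9.47% and 8.76% in the third, and these shares stand beside the counts of each list below. Between untreated genotypes 0 changed, with 11 at an unadjusted p under 0.05, and for the difference between the DSS effects 0 changed, with 2. The median changes were 0.08, 0.11, -0.10, -0.04 and -0.10 in this order of comparisons, beside 0.04, 0.09, -0.11, -0.02 and -0.06 over all probes. Of the other ligands and the remaining receptor, Egf, Nrg2 and Nrg4 were well above background on all arrays and Erbb4 on none, and 0 of these 4 changed in any comparison in limma, with 1 at an unadjusted p under 0.05 for DSS in Pirc rats and 0 otherwise. Epgn and Nrg3 had no named probe and are not analysed here.

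Of 6 measured genes of ligand shedding, 1 rose after DSS in each genotype and 1 fell between DSS-treated genotypes. Adam19, a metalloprotease known to cleave Nrg1 in cultured cells, had levels of -4.25, -4.61, -4.61 and -4.16 in untreated wildtype, -2.20, -2.66, -3.78 and -3.34 in DSS-treated wildtype, -4.15, -4.25, -3.92 and -3.83 in untreated Pirc and -2.92, -1.86, -2.92 and -2.40 in DSS-treated Pirc rats. All treated rats lay above all untreated rats. It rose by 1.51 in Pirc rats (standard error 0.31, adjusted p = 0.00432 from limma) and by 1.41 in wildtype rats (standard error 0.31, adjusted p = 0.0201 from limma). The rise in Pirc rats was lost on slide 2 alone (1.21, adjusted p = 0.136 from limma), and as the mean of its probes it was 0.73 (adjusted p = 0.0279 from limma). That in wildtype rats was lost on either slide alone (1.999 and 0.83), with the mean of its probes (0.73, adjusted p = 0.0665 from limma), with only the compared groups in the fit, and without rat 14 (1.15), 17 (1.34), 18 (1.30) or 21 (1.345).

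Adam15, another metalloprotease and the brightest of that list, fell by 1.21 between DSS-treated genotypes (standard error 0.20, adjusted p = 0.00222 from limma). Its levels were 1.46, 1.495, 1.88 and 1.87 in DSS-treated wildtype and 0.15, 0.86, 0.03 and 0.81 in DSS-treated Pirc rats, with no overlap, and 1.29, 1.63, 1.84 and 1.47 in untreated wildtype against 1.32, 0.95, 0.86 and 0.92 in untreated Pirc rats. The fall was lost on either slide alone (-0.98 and -1.45), where 310 and 114 of all probes passed. Adam10 and Adam12 had no named probe. Adam9, Adam17, the main protease of Areg and Hbegf, and the pseudoproteases Rhbdf1 and Rhbdf2 passed in no comparison.

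Of 22 genes of the signalling cascade, all measured, 4 fell after DSS in Pirc rats, 1 fell in wildtype rats and 3 fell between DSS-treated genotypes, and 0 rose in any of these in limma, with 7, 3 and 7 at an unadjusted p under 0.05 in either direction. Pik3r1 and Pik3ca, a regulatory and a catalytic subunit of phosphoinositide 3-kinase, fell in Pirc rats by 1.02 (standard error 0.23, adjusted p = 0.00793 from limma) and by 0.95 (standard error 0.22, adjusted p = 0.00894 from limma). Pik3r1 levels were -0.94, -1.28, -0.93 and -1.42 in untreated and -2.26, -2.06, -2.66 and -1.66 in DSS-treated Pirc rats, and those of Pik3ca 1.35, 1.21, 1.21 and 0.66 against 0.19, -0.11, 0.01 and 0.53. The treated rats were below the untreated ones for both. Plcg1, a phospholipase that binds Egfr, fell by 0.59 in Pirc rats (standard error 0.11, adjusted p = 0.00263 from limma) and by 0.44 in wildtype rats (standard error 0.11, adjusted p = 0.0383 from limma).

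On slide 2 alone the falls of Pik3r1 (-0.99), Pik3ca (-0.67) and Plcg1 (-0.57) after DSS in Pirc rats were lost, and on slide 1 alone that of Plcg1 (-0.61). With any 1 rat left out Pik3r1, Pik3ca and Plcg1 still passed the adjusted p in Pirc rats, with Pik3r1 short of 2-fold without rat 11 (-0.95), 12 (-0.98), 19 (-0.95) or 20 (-0.85). Plcg1 in wildtype rats was lost without rat 11, 13, 14, 15, 17, 18, 21, 22, 25 or 26 (changes of -0.48 to -0.42 over all fits that left out a rat), on either slide (-0.33 and -0.56), with the mean of its probes (-0.38) and with only the compared groups.

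Between DSS-treated genotypes Gab1, a docking protein of Egfr, fell by 0.81, the exchange factor Sos2 by 0.57 and the kinase Map2k2 by 0.50 (standard errors 0.22, 0.16 and 0.16, adjusted p = 0.0204, 0.0233 and 0.0434 from limma). None of the 3 reached 2-fold, and all 3 falls were lost on either slide alone (-0.56 and -1.07, -0.58 and -0.56, -0.31 and -0.70) and with only the compared groups. Under normexp the fall of Gab1 was -0.37 and still passed. Gab1 was lost without rat 12 (-0.75), 14 (-0.77) or 20 (-0.60), and Sos2 without rat 12 (-0.50), 14 (-0.52), 20 (-0.50) or 22 (-0.50). Map2k2 was lost without rat 11, 12, 13, 14, 15, 17, 18, 20, 22, 24, 25 or 26 (-0.62 to -0.44 over all fits that left out a rat). The means of these 3 genes were also lower in untreated Pirc than in untreated wildtype rats, without passing. They were -4.88 and -4.29 for Gab1, 0.93 and 1.39 for Sos2, and 5.005 and 5.35 for Map2k2. The ranges overlapped for Map2k2 and not for Gab1 or Sos2.

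Of 14 measured feedback genes, 4 fell between DSS-treated genotypes and 0 rose in limma, with 4 at an unadjusted p under 0.05 in either direction, and in the other comparisons 0 changed, with 3 at an unadjusted p under 0.05 for DSS in Pirc rats, 2 for DSS in wildtype rats, 2 between untreated genotypes and 1 for the difference between the DSS effects. The 4 were Lrig2 (-0.75), a relative of the Egfr inhibitor Lrig1, the ubiquitin ligase Cblc (-0.55), Socs5 (-0.50) and Socs4 (-0.42), with adjusted p = 0.0210, 0.0212, 0.0405 and 0.0264 from limma. Errfi1, which inhibits Egfr directly, was the brightest of the list and did not pass in any comparison. None of the 4 reached 2-fold, and all 4 falls were lost on either slide alone (Lrig2 -0.34 and -1.15, Cblc -0.33 and -0.76, Socs5 -0.54 and -0.47, Socs4 -0.46 and -0.39) and with only the compared groups. Lrig2 was lost without rat 20 (-0.62), 22 (-0.67) or 26 (-0.58), Cblc without rat 12 (-0.52), 20 (-0.44) or 26 (-0.47) and Socs4 without rat 12 (-0.44), 14 (-0.40), 18 (-0.40), 20 (-0.44) or 24 (-0.38). Socs5 was lost without rat 11, 12, 14, 15, 16, 18, 19, 22 or 24 (-0.59 to -0.40 over all fits that left out a rat). The means of the 4 were also lower in untreated Pirc than in untreated wildtype rats, without passing. They were -2.92 and -2.67 for Lrig2, 0.36 and 0.88 for Cblc, -0.27 and -0.11 for Socs5, and -3.04 and -2.97 for Socs4. The ranges overlapped for Socs5 and Socs4 and not for Lrig2 or Cblc. Lrig1, Lrig3, Cbl, Spry1, Spred3 and Dusp7 had no named probe.

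Of 12 genes known to respond to Egfr signalling, all measured, 2 rose after DSS in Pirc rats, 1 in wildtype rats and 1 between DSS-treated genotypes, and 0 fell in limma, with 7, 4 and 4 at an unadjusted p under 0.05 in either direction. The list had median changes of 0.92, 0.58 and 0.64. Phlda1 rose by 2.02 in Pirc rats (standard error 0.59, adjusted p = 0.0326 from limma), with -2.31, -4.29, -2.91 and -3.92 untreated and -2.15, -2.40, 0.06 and -0.86 after DSS, where untreated rat 11 lay among the treated ones. Plaur, the urokinase receptor, rose by 1.79 (standard error 0.50, adjusted p = 0.0271 from limma), with -1.85, -3.10, -2.92 and -2.82 untreated and -1.47, -1.26, 1.06 and -1.85 after DSS, where rats 11 and 24 nearly met. Rat 20 was highest for both. In wildtype rats neither gene passed, although treated and untreated rats did not overlap for either. There the means were -4.73 untreated and -2.64 after DSS for Phlda1, and -2.99 and -2.08 for Plaur.

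The rise of Phlda1 was lost on slide 1 alone (1.02), without moderation, with only the compared groups, and without rat 15 (1.71), 20 (1.55), 23 (1.83) or 24 (1.86). Plaur was lost on either slide alone (1.11 and 2.47), with only the compared groups, and without rat 15 (1.65) or 19 (1.71), and without rat 20 its change was 1.15.

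Fosl1, an AP-1 subunit, rose by 3.61 in wildtype rats (standard error 0.87, adjusted p = 0.0333 from limma), from -5.58, -5.62, -6.68 and -6.74 to -1.44, -0.9955, -3.40 and -4.35, with no overlap and with 3 of the 4 untreated arrays well above background. The rise was lost under normexp (1.91), on slide 2 alone (2.84), without moderation, with only the compared groups, and without rat 13 (3.80), 14 (3.24), 17 (3.79), 18 (3.09), 21 (3.44) or 25 (3.41). In Pirc rats the mean of Fosl1 was -3.64 untreated and -1.10 after DSS, without overlap and without passing. Myc rose by 1.32 between DSS-treated genotypes (standard error 0.29, adjusted p = 0.00805 from limma), with -1.16, -0.58, -0.66 and -0.27 in wildtype and 1.04, -0.03, 1.02 and 0.57 in Pirc rats. Pirc rats were higher without overlap, and the rise was lost on either slide alone (1.37 and 1.26). The mean of Myc was also higher in untreated Pirc (0.37) than in untreated wildtype rats (-0.45), with overlap and without passing. Myc is also a known target of Wnt signalling, which Apc restrains, and a part of Wnt signalling in its level was not tested.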

How the data were processed

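Values are the processed Cy3 intensity of each spot in the scanner files deposited by the authors, as given by Agilent Feature Extraction 10.7.3.1, which had corrected it for background. The submitters' processing notes name Partek without a version, and no output of it was used. Of 62976 spots per array, 4259 controls were left out and 58717 kept. The log2 of each spot was taken relative to the 75th percentile of its array, and the spots of a probe were averaged without those marked as outliers. Where all spots of a probe were so marked (25 values) they were kept.

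Groups were compared in R 4.3.3 with limma 3.58.1 on 30367 probes, with 1 mean per group and Benjamini-Hochberg adjustment within each comparison. Of the probes, 18006 were named by their RefSeq transcript to 15159 symbols and 12361 could not be. All members are named. Of each pathway list, up to 4 genes per comparison that passed the adjusted p are named by size of change, if well above background on all arrays of the higher group, and of each marker list the brightest gene and genes that passed. For each called member, the 3 genes with the highest correlation are named. The members and lists were chosen with earlier results of these data known. The scripts were tested on simulated data.

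Alternatives tried were quantile normalization, normexp background correction (offset 50) of the median signal followed by quantile normalization, a filter on dim probes, a common floor for dim probes, slide or array row as a block, each slide alone, outlier spots kept, no moderation, the mean of the probes of a gene, no minimum change, only the compared groups in the fit, and each rat left out.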

Additional observations from a re-analysis of the deposited data

Results flagged for a closer look

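Among 48 groups of 4 values, the 12 probes in the 4 groups, 3 held 1 rat far from the other 3 by Dixon's test. With about 1 in 20 groups marked by chance, a few are expected. Areg in untreated wildtype rat 17 was at 2.56, where the other 3 lay between 1.69 and 1.79. The Tgfa probe A_44_P310168 in untreated wildtype rat 13 was at -1.09, where the others lay between -0.83 and -0.79. The Erbb2 probe A_64_P038812 in untreated wildtype rat 21 was at -2.61, where the others lay between -2.91 and -2.90.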

How the results depend on the processing

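For DSS in Pirc rats 2 members were called, Nrg1 and Btc, and only Nrg1 under normexp, with the common floor for dim probes, without moderation and with only the compared groups. On slide 2 both were lost and 1 other, Ereg (2.03), was called. With 1 rat left out the count was 1 to 2. For DSS in wildtype rats 2 were called, and 1 under normexp, 0 on slide 2 only and 1 with only the compared groups, and 1 to 2 with 1 rat left out. Between DSS-treated genotypes 0 were called, and 2 with no minimum change. Between untreated genotypes and for the difference between the DSS effects every alternative gave 0.

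Over all probes 2265 were called for DSS in Pirc rats, and 992 under normexp and 371 on slide 2. For DSS in wildtype rats 841 were called, and 238 under normexp, 548 with the common floor, 1 on slide 2 and 402 with only the compared groups. Between DSS-treated genotypes 1660 were called, and 826 under normexp, 309 on slide 1, 114 on slide 2 and 1018 with only the compared groups. The difference between the DSS effects had 13 called probes, and 26 under normexp, 56 with the common floor, 0 on slide 1, 2 on slide 2 and 8 without moderation. Between untreated genotypes 0 were called, and 3 with only the compared groups.

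Some changes took the other sign, none of which had passed the test. For DSS in Pirc rats Erbb3 (0.04) was -0.0215 under quantile normalization, -0.0453 under normexp and -0.0215 on slide 1, and -0.14 to 0.16 with 1 rat left out. Ereg (0.89) was -0.25 on slide 1. Tgfa (-0.01) was 0.18 on slide 1 and 0.11 as the mean of its probes, and -0.16 to 0.0746 with 1 rat left out.

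For DSS in wildtype rats Ereg (0.10) was -0.0296 under quantile normalization, -0.0447 under normexp and -0.21 on slide 1, and -0.0927 to 0.41 with 1 rat left out. Btc (0.06) was -0.20 under quantile normalization, -0.0572 under normexp and -0.71 on slide 2, and -0.16 to 0.36 with 1 rat left out. Hbegf (0.61) was -0.69 on slide 1. Areg (-0.04) was 0.15 on slide 2, and -0.24 to 0.16 with 1 rat left out.

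Between untreated genotypes Hbegf (-0.06) was 1.14 on slide 2, and -0.56 to 0.51 with 1 rat left out. Btc (0.55) was -0.54 on slide 2. Areg (-0.09) was -0.41 to 0.14 with 1 rat left out. Between DSS-treated genotypes Ereg (0.08) was -0.38 on slide 1, and -0.23 to 0.39 with 1 rat left out. Egfr (-0.14) was 0.0682 on slide 2, and -0.37 to 0.0821 with 1 rat left out.

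For the difference between the DSS effects Nrg1 (-0.57) was 0.15 under normexp and 0.041 with the common floor. Ereg (0.79) was -0.0396 on slide 1. Tgfa (-0.09) was 0.0777 on slide 1 and 0.0412 as the mean of its probes. The fit with only the compared groups is the same fit there. The cause of these differences was not tested.

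Each group had 4 rats, 2 on each slide, and each group filled 1 array column, a confounding in which the 2 cannot be told apart. Array row as a block was chosen after seeing the data. Samples were bulk tissue taken at 1 age, 36 days after the last DSS, from male rats. Btc and Nrg1 were dim, and the sizes of their changes differed between settings. Probes show transcript levels and not protein, shedding or receptor activity.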
